A study of Mus musculus with 10 samples.

Results

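The 10 genes described here belong to the Bcl2 family, whose proteins decide whether the outer membrane of the mitochondrion is breached. They were taken by name from a table of 17658 genes: the pro-survival genes Bcl2, Bcl2l1 and Mcl1, the effector genes Bax and Bak1, and the BH3-only genes Bcl2l11, Bbc3, Pmaip1, Bid and Bmf. All 10 were listed, and all 10 were among the 10225 genes tested, those averaging 1 FPKM or more over the libraries. FPKM counts sequenced fragments per length of transcript and per library total. RNA was sequenced from B cells of C57BL/6 mice aged 10 weeks, isolated from spleen and lymph node by magnetic removal of other cells. Mice were Nr4a1+/+ (wild type, WT) or Nr4a1-/- (knockout, KO), and Nr4a1 encodes Nur77, an orphan nuclear receptor induced by the antigen receptor. Cells were unstimulated (1 library per genotype) or had been kept for 2 hours with 10 µg/mL of anti-IgM, which crosslinks the B cell receptor (4 libraries per genotype, A to D). Whether the letters are separate mice, and how the knockout allele was made, is not in the labels, so p-values measure the spread between these libraries, which may be technical.

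In healthy cells the pro-survival proteins bind and restrain Bax and Bak1, which otherwise form pores that release cytochrome c and start the caspase cascade. BH3-only proteins carry stress signals: they occupy the pro-survival proteins or activate the effectors directly. In B cells, Bim (encoded by Bcl2l11) is needed for deletion of autoreactive cells, while Mcl1 and Bcl-xL (encoded by Bcl2l1) are known to support survival of activated cells.

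The level of Nr4a1 did not separate the genotypes. It was listed at 126 FPKM in both unstimulated libraries, at 808 ± 47.2 FPKM (SD, n = 4) in stimulated wild type and at 702.1 ± 44.6 FPKM (SD, n = 4) in stimulated libraries labelled knockout, and the groups overlapped although the lower level passed the test (log2 difference -0.203, limma adjusted p = 0.0432). With this much transcript in every library the labels could not be checked from this gene, and each genotype difference below is between libraries as labelled. Summed FPKM was 674961 in unstimulated wild type, 595500 in the unstimulated library labelled knockout and 557214 to 571784 after stimulation. Relative depth, recovered from 38 of 126 low genes whose values were whole multiples of a step, ran from 0.899 to 1.08, and absolute depth is unknown. Of 6 B cell markers, Cd79a, Cd79b and Pax5 among them, all 6 were present and fell with anti-IgM, their sum going from between 3800 and 4030 FPKM to between 1300 and 1430 FPKM. Cd79b was the only 1 of them called between genotypes after stimulation, lower in libraries labelled knockout (-0.320, limma adjusted p = 0.00054). The T cell genes Cd3e, Cd3d, Cd3g, Cd4 and Cd8a stayed at or below 0.53 FPKM in every library. Lck, the sixth of that list, rose from 17.48 and 25.0 FPKM to 46.6 ± 1.96 in wild type and 65.3 ± 1.07 in libraries labelled knockout (SD, n = 4 each), and was called between genotypes (0.48, limma adjusted p = 3.15e-05). The 4 NK cell genes found summed to at most 0.55 FPKM. The 6 myeloid markers summed to 38.1 to 138 FPKM in stimulated wild type and 23.2 to 101 FPKM in stimulated libraries labelled knockout, with 0 of 6 called between genotypes by limma and 1 of 6 at an unadjusted p under 0.05. The 5 erythroid genes found (123 and 39.9 FPKM unstimulated, 7.79 to 66.4 FPKM stimulated) and the 5 plasma cell genes (70.8 to 94.8 FPKM over all 10 libraries) were also present. Of the plasma cell genes Prdm1 was called between genotypes, at 3.62 ± 0.237 and 5.30 ± 0.750 FPKM (SD, n = 4 each; 0.440, limma adjusted p = 0.0101), higher in the libraries labelled knockout without overlap. It also rose with anti-IgM (1.04, limma adjusted p = 1.8e-06). The part of these cells in the results was not tested.

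The sequences before the start sites of 3 genes are shown because these genes moved most with stimulation and in both directions within the family: Bcl2l1 and Bcl2l11 rose, Bcl2 fell. They are the 250 bases upstream of the RefSeq start nearest the annotated gene start in GRCm38.p6, at chr2:152831729-152831978 (minus strand) for Bcl2l1, chr2:128125788-128126037 (plus strand) for Bcl2l11 and chr1:106714291-106714540 (minus strand) for Bcl2. Each is written 5′ to 3′ along the gene, and capitals mark every match to a motif named in the next paragraph.
Bcl2l1: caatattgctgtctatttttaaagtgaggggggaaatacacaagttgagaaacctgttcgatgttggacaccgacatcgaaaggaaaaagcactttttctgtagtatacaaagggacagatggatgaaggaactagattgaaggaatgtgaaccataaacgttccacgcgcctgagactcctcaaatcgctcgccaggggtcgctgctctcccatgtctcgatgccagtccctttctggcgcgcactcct
Bcl2l11: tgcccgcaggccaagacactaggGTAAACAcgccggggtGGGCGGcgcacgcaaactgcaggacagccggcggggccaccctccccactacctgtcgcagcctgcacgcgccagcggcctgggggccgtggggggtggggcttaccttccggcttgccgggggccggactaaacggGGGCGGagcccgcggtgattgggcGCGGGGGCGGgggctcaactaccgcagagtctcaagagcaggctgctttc
Bcl2: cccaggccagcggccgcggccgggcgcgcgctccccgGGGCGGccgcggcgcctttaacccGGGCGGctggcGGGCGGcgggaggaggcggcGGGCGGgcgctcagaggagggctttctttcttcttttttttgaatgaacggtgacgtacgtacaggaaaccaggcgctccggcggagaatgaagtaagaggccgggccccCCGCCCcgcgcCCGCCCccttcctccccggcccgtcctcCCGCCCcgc

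The windows differed in composition, with 47.6% G and C for Bcl2l1, 72.0% for Bcl2l11 and 74.8% for Bcl2. A set of 8 motifs was searched on both strands: the Nr4a binding element AAAGGTCA, the AP-1 motif TGANTCA, the CRE TGACGTCA, the kappa B motif (GGG and TTTCC, 2 bases apart), the E-box CACGTG, the FOXO motif TGTTTAC, the EGR motif GCGNGGGCG and the GC box GGGCGG, which can overlap the EGR motif. The Bcl2 window held 7 GC boxes and no other motif, and that of Bcl2l1 held none of the motifs. RefSeq lists 3 start sites for Bcl2l1, 2 for Bcl2l11 and 1 for Bcl2, and windows before the other starts were not searched for members. The Bcl2l11 window held 3 GC boxes, 1 of them overlapping an EGR motif that begins 50 bases before the start. It also held 1 FOXO motif, which begins 227 bases before the start. Among the other member windows, that of Bbc3 held an EGR motif too, 49 bases before its start and overlapping a GC box. That of Bax held an E-box 9 bases before its start. Over 32841 windows of this length before RefSeq start sites, GC boxes were in 32.7%, EGR motifs in 4.70% and FOXO motifs in 3.17%. The Nr4a element, in 1.34% of all windows, was in 0 of the 9 member windows searched. A kappa B motif, in 1.41% of all windows, was in those of Mcl1 and Bbc3. The start used for Bbc3 was 1190 bases from the annotated gene start, and that for Bak1 was 382 bases from it. The Bak1 window also overlapped exons of Bak1 and Ggnbp1, and the Bid and Bmf windows each overlapped exon sequence of their own gene. A match is a description of letters and not of a bound site, and its absence says only that these letters are not in this window.

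With anti-IgM, pro-survival and BH3-only genes moved in both directions, and the share of the 10 that passed the test was near that of all genes. Of the 10 genes, 8 passed a limma test of 8 stimulated against 2 unstimulated libraries with genotype as a term (adjusted p under 0.05), 5 higher and 3 lower, where a like share, 78.9%, of all genes tested passed, 31.2% higher and 47.7% lower. The change was 1 or more on the log2 scale for 4 of them, 2 higher and 2 lower, against 20.3% of all genes, 7.94% higher and 12.4% lower. For 6 of the 10 the 8 stimulated libraries did not overlap the 2 unstimulated ones, which held for 72.9% of all genes. The median log2 change was 0.231 over the 10 genes and -0.173 over all genes tested, on the scale log2(FPKM + 1) used for every log2 value here, which understates changes near 1 FPKM. That last value moved to between -0.0311 and 0.0347 under 3 other scalings, so small changes are to be read against it. These are bulk samples, in which fewer cells holding a transcript and less transcript per cell cannot be told apart.

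**Figure D1:**
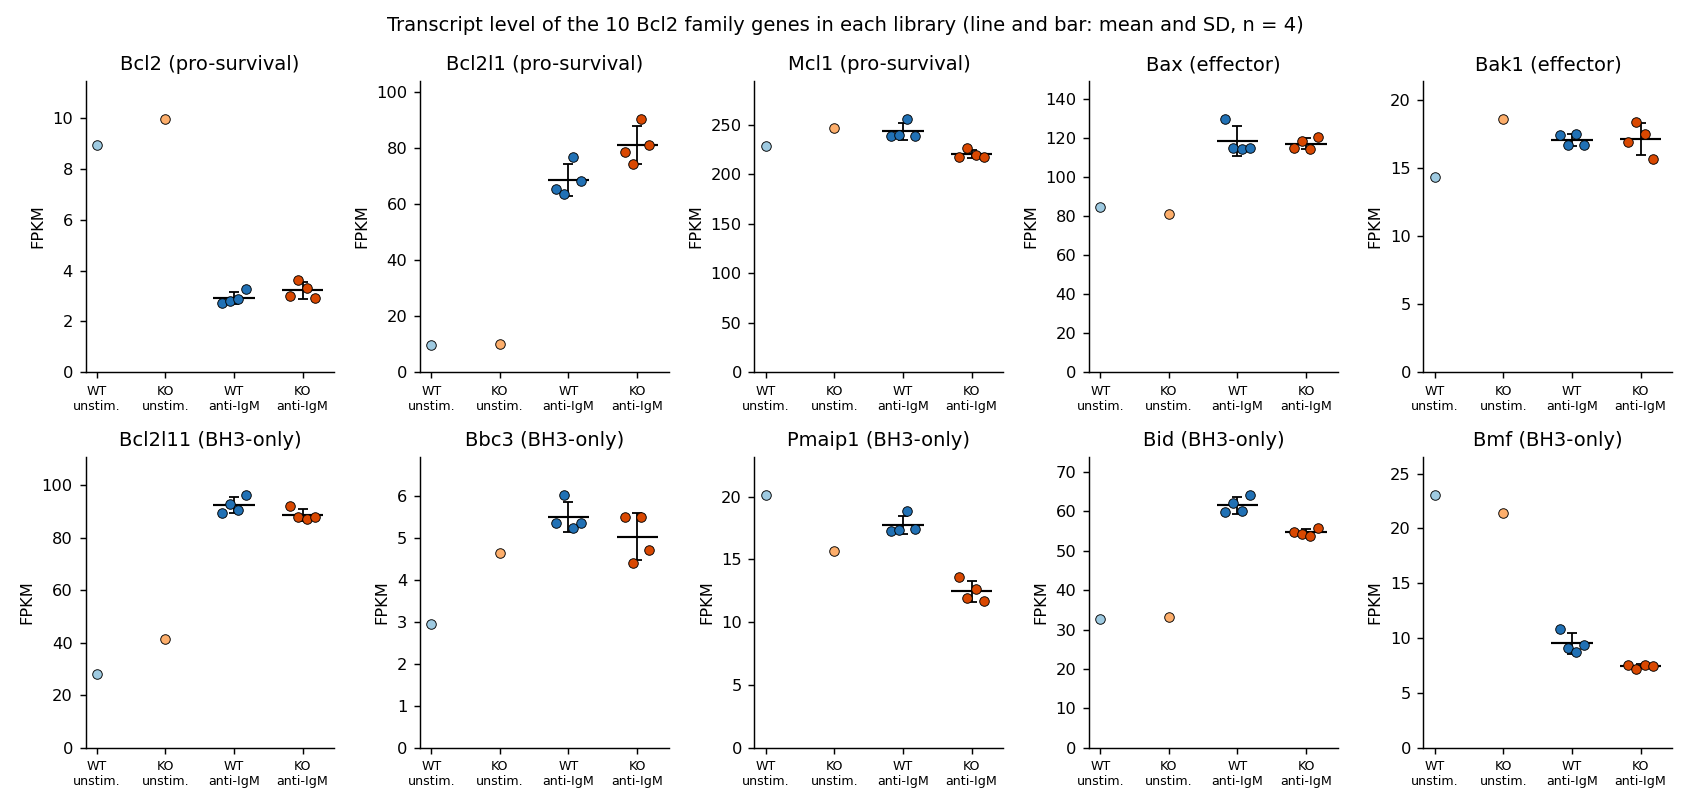
Level of each of the 10 genes (FPKM, linear axis from 0) in each library; points are libraries, lines and bars the mean and SD of 4, and KO stands for libraries labelled Nr4a1-/-. Bcl2l1 goes from about 10 FPKM to between 63.5 and 90.2 FPKM, and the stimulated KO points of Mcl1, Pmaip1, Bid and Bmf lie below the stimulated WT points.

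Among pro-survival genes, Bcl2l1 rose most. Bcl2l1 (chr2:152780668-152831728, minus strand, GRCm38) encodes Bcl-xL, and the gene-level value does not separate it from the shorter splice form with opposite activity. It stood at 9.65 FPKM in unstimulated wild type and 9.90 FPKM in its counterpart labelled knockout. Stimulated, it was at 65.4, 63.5, 76.5 and 68.1 FPKM in wild-type libraries A to D. It was at 78.4, 74.2, 90.2 and 81.1 FPKM in those labelled knockout. All 8 stimulated libraries lay far above both unstimulated ones, 7.08 times the unstimulated level in wild type and 8.18 times in the libraries labelled knockout. The fitted log2 change was 2.80 (SE 0.0823, limma adjusted p = 1.93e-10), and it lay between 2.42 and 3.02 in 23 alternatives, all of which called it.

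Bcl2, the founding pro-survival gene (chr1:106538178-106714274, minus strand), went the other way. It was at 8.95 FPKM in unstimulated wild type and 9.97 FPKM in the unstimulated library labelled knockout. With anti-IgM the wild-type values were 2.72, 2.80, 2.88 and 3.26 FPKM in libraries A to D, and those labelled knockout 2.99, 3.63, 3.33 and 2.90 FPKM. The highest stimulated library held 3.63 FPKM, so Bcl2 fell to 0.326 and 0.322 of its unstimulated level, and the log2 change was -1.37 (SE 0.0820 by limma, adjusted p = 3.94e-08). It was called in all 22 alternatives that tested it. Per length of transcript, Bcl2l1 was at 1.08 (wild type) and 0.993 (labelled knockout) times the level of Bcl2 before stimulation and at 20.4 to 28 times in the 8 stimulated libraries.

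Mcl1 (chr3:95658788-95663176, plus strand), which encodes a short-lived pro-survival protein, was the most abundant of the 10 in every library and was not called with stimulation. It stood at 228 FPKM in unstimulated wild type and 246 FPKM in the unstimulated library labelled knockout. Stimulated wild type, A to D, held 238, 240, 256 and 239 FPKM, and stimulated libraries labelled knockout held 217, 226, 220 and 218 FPKM. Stimulated and unstimulated libraries overlapped (log2 change -0.0366, 95% interval -0.156 to 0.0832, limma adjusted p = 0.551). Its sign depended on the scaling and on the unstimulated library used: it was 0.199 with median-of-ratios scaling (limma adjusted p = 0.00466) and -0.219 after quantile normalization (0.00959). It was 0.0897 without the unstimulated library labelled knockout and -0.163 without the wild-type one (limma adjusted p = 0.0933 and 0.00777).

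Of the effectors, Bax rose and Bak1 was not called. Bax (chr7:45461697-45466898, minus strand) went from 84.5 FPKM in unstimulated wild type to 130, 115, 114 and 115 FPKM in stimulated libraries A to D. In libraries labelled knockout it went from 81.0 FPKM to 115, 118, 114 and 120 FPKM. All stimulated values exceeded both unstimulated ones, and the fitted rise was 0.501 (SE 0.0503 by limma, adjusted p = 3.05e-06), called in 23 of 23 alternatives. Bak1 (chr17:27019810-27029009, minus strand) was at 14.3 and 18.6 FPKM unstimulated, in wild type and labelled knockout. Stimulated wild type held 17.4, 16.6, 17.5 and 16.7 FPKM, and stimulated libraries labelled knockout held 16.9, 18.4, 17.5 and 15.6 FPKM. The stimulated values of Bak1 lay between the unstimulated ones (log2 change 0.0601, 95% interval -0.112 to 0.232, limma adjusted p = 0.495), and the change was -0.116 without the unstimulated wild-type library and 0.236 (limma adjusted p = 0.0183) without the one labelled knockout. With median-of-ratios scaling and quantile normalization Bak1 was called higher (0.282 and 0.200, limma adjusted p = 0.00308 and 0.0221).

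**Figure D2:**
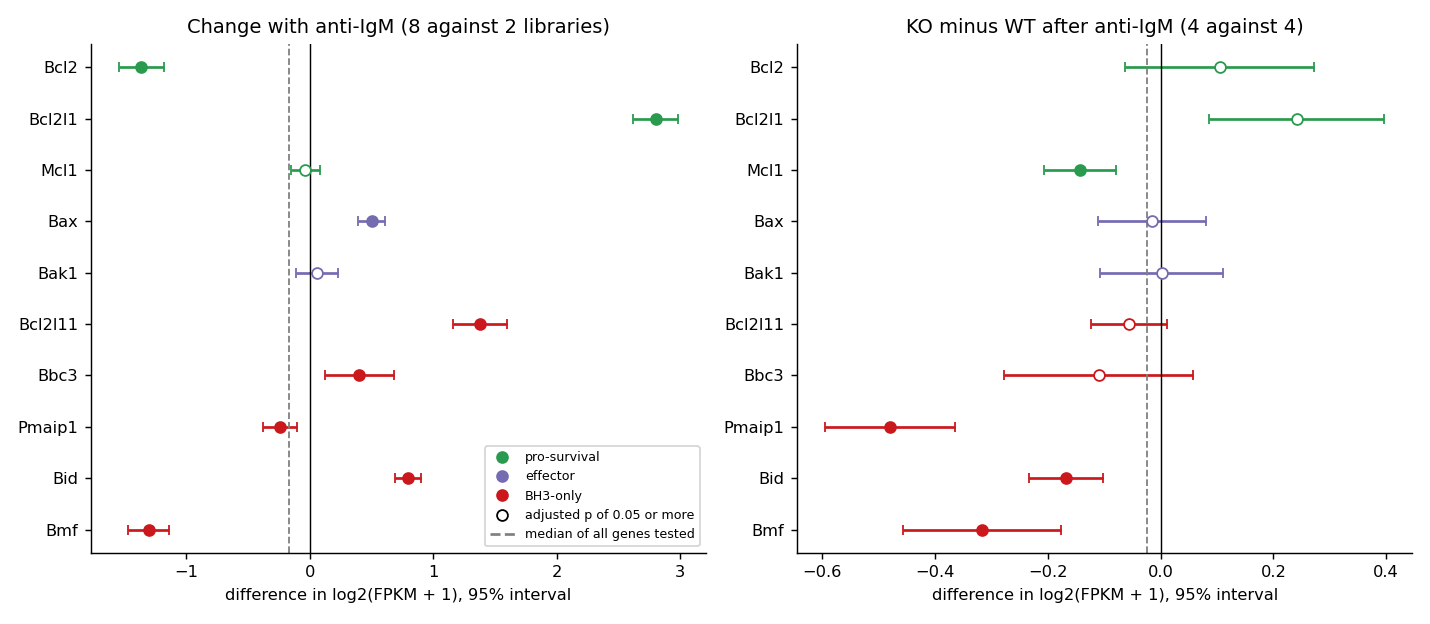
Difference in log2(FPKM + 1) with its 95% interval from limma for each gene, on the left stimulated against unstimulated (8 against 2 libraries) and on the right KO (libraries labelled Nr4a1-/-) minus WT after anti-IgM (4 against 4); filled points have an adjusted p under 0.05 and the dashed line is the median of all genes tested. On the left Bcl2l1 (2.80) and Bcl2l11 (1.38) are farthest right and Bcl2 (-1.37) and Bmf (-1.31) farthest left; on the right Pmaip1 (-0.479) is lowest.

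Among BH3-only genes, Bcl2l11, Bid and Bbc3 rose while Bmf and Pmaip1 fell. Bcl2l11 (chr2:128126038-128162547, plus strand), encoding Bim, which can bind all pro-survival members, was at 28.1 FPKM in unstimulated wild type and 41.6 FPKM in the unstimulated library labelled knockout. Stimulation brought it to 89.5, 92.9, 90.8 and 96.5 FPKM in wild-type libraries A to D and 92.2, 87.8, 87.2 and 88.0 FPKM in those labelled knockout. The 8 stimulated libraries formed a single narrow range well above both unstimulated ones, and the fitted rise was 1.38 (SE 0.101 by limma, adjusted p = 2.01e-07). It was called in all 23 alternatives, between 1.08 and 1.68.

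Bid (chr6:120891930-120916853, minus strand), whose protein links death receptors to mitochondria once caspase 8 has cut it, was at 32.8 and 33.2 FPKM in the unstimulated libraries. It rose to 59.7, 62.2, 60.0 and 64.2 FPKM in wild-type libraries A to D and to 54.9, 54.3, 53.7 and 55.8 FPKM in those labelled knockout. Every stimulated value was above both unstimulated ones, and the log2 change was 0.794 (SE 0.0478, limma adjusted p = 4.05e-08). Bbc3 (chr7:16308393-16318205, plus strand), encoding Puma, a target of p53, was low throughout. It was at 2.95 FPKM in unstimulated wild type and 4.64 FPKM in the unstimulated library labelled knockout, then at 5.35, 6.02, 5.22 and 5.35 FPKM in stimulated wild type and 5.50, 4.40, 5.49 and 4.70 FPKM in stimulated libraries labelled knockout. The fitted rise was 0.402 (SE 0.127, limma adjusted p = 0.0128), but the stimulated libraries labelled knockout spread to both sides of their unstimulated value, and without the unstimulated wild-type library the change was 0.0899 (limma adjusted p = 0.507).

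Bmf (chr2:118528757-118549687, minus strand), whose protein is held on the actin cytoskeleton in resting cells, fell. It was at 23.1 FPKM in unstimulated wild type and 21.4 FPKM in the unstimulated library labelled knockout. It dropped to 10.8, 9.12, 8.70 and 9.38 FPKM in stimulated wild type A to D and to 7.52, 7.15, 7.52 and 7.48 FPKM in those labelled knockout. No stimulated library came near the unstimulated level, and the log2 change was -1.31 (SE 0.0760, limma adjusted p = 3.03e-08). Pmaip1, encoding Noxa, which binds Mcl1, moved little: from 20.1 FPKM unstimulated to 17.3, 17.3, 18.8 and 17.4 FPKM in wild type, and from 15.7 FPKM to 13.6, 11.9, 12.6 and 11.7 FPKM in libraries labelled knockout. Its fitted fall of -0.245 (SE 0.0625, limma adjusted p = 0.00379) is close to the median shift of all genes and was called in 17 of 23 alternatives, not with the 3 other scalings (limma adjusted p from 0.0943 to 0.759) nor without the unstimulated library labelled knockout (limma adjusted p = 0.0721).

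Between genotypes after anti-IgM, 4 of the 10 genes were called, all 4 lower in the libraries labelled knockout: Pmaip1, Bmf, Bid and Mcl1. Of all genes tested 9.72% were called, 5.81% lower and 3.91% higher. The stimulated libraries of the genotypes did not overlap for the same 4 genes, where 15.5% of all genes did not overlap, 9.57% with the libraries labelled knockout lower and 5.96% with them higher. Of the 4, 3 are BH3-only genes, 1 is pro-survival and neither effector is among them. The median log2 difference was -0.0829 over the 10 genes and -0.0236 over all genes tested. For these 4 genes the two-sided exact permutation p over 70 labellings was 0.0286, the smallest possible with 4 against 4 and not adjusted.

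The largest difference was in Pmaip1, with means of 17.7 ± 0.739 FPKM for wild type and 12.4 ± 0.853 FPKM for libraries labelled knockout (SD, n = 4 each), or 70.2% of wild type. The lowest wild-type library held 17.29 FPKM and the highest labelled knockout 13.57 FPKM. The log2 difference was -0.479 (SE 0.0513, limma adjusted p = 0.000364), called in 19 of 19 alternatives. Bmf stood at 9.51 ± 0.935 and 7.42 ± 0.179 FPKM (SD, n = 4 each), 78.0% of wild type, a log2 difference of -0.317 (SE 0.0621, limma adjusted p = 0.0113). Bid stood at 61.5 ± 2.11 and 54.7 ± 0.909 FPKM (SD, n = 4 each), 88.8% of wild type, a difference of -0.167 (SE 0.0292, limma adjusted p = 0.00614). Bmf and Bid were also called in all 19 alternatives. Mcl1 differed least of the 4, at 243 ± 8.35 and 220 ± 4.16 FPKM (SD, n = 4 each), 90.5% of wild type, with a difference of -0.143 (SE 0.0282, limma adjusted p = 0.0117). It was called in 18 of 19 alternatives, the exception being median-of-ratios scaling (-0.0994, limma adjusted p = 0.113).

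Bcl2l1 was higher in the libraries labelled knockout without passing the test as fitted, and was called in 5 of 19 alternatives. Its means were 68.4 ± 5.75 FPKM for wild type and 81.0 ± 6.79 FPKM for libraries labelled knockout (SD, n = 4 each), 118.5% of wild type, a log2 difference of 0.241 (SE 0.0691, 95% interval 0.0857 to 0.397, limma adjusted p = 0.0617). Wild-type library C, at 76.5 FPKM, lay above library B labelled knockout, at 74.2 FPKM. When 1 or the other of these was left out the gene was called (limma adjusted p = 0.0227 and 0.0427). Either removal ends the overlap, so these calls follow from the library chosen. Without any other single stimulated library it was not called (limma adjusted p from 0.0997 to 0.154). It was also called with TPM rescaling (limma adjusted p = 0.0487) and among genes averaging 5 FPKM or more (0.0462). With the letter as a block it was called too (limma adjusted p = 0.00319). Over all genes together, no pairing of the libraries by letter was seen. For Bcl2l1, however, the order from lowest to highest was B, A, D, C in both genotypes. Whether the letters pair the libraries for this gene was not tested. The other 5 genes overlapped between genotypes too. The difference was 0.104 for Bcl2 (95% interval -0.0628 to 0.271), -0.0152 for Bax (-0.110 to 0.0800) and 0.00149 for Bak1 (-0.108 to 0.110). It was -0.0560 for Bcl2l11 (-0.124 to 0.0118) and -0.110 for Bbc3 (-0.278 to 0.0581). Their limma adjusted p ran from 0.321 for Bcl2l11 to 0.992 for Bak1, and none was called in any alternative.

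Before stimulation the pattern between genotypes was different, as far as a single library each can show. The largest differences were higher in the library labelled knockout, 1.57 times for Bbc3, 1.48 times for Bcl2l11 and 1.30 times for Bak1. Pmaip1 was at 0.778 times the wild-type level before stimulation and at 70.2% of it after, so its lower level was present in both states. For Bid (1.01 times) and Bmf (0.927 times) the unstimulated values were close, and Mcl1 was higher in the unstimulated library labelled knockout (1.08 times) but lower after stimulation.

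**Figure D3:**
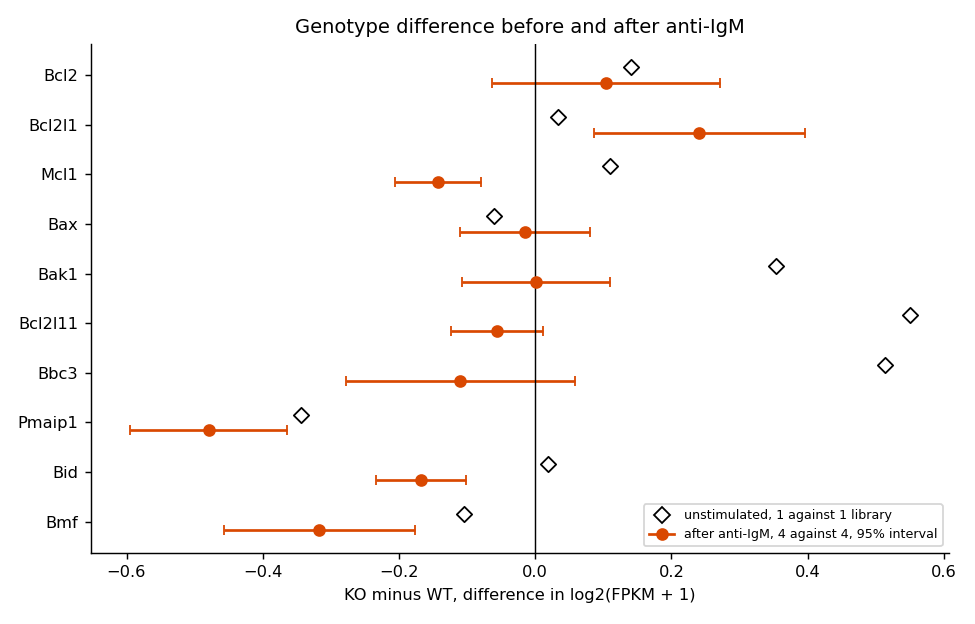
Difference KO (libraries labelled Nr4a1-/-) minus WT in log2(FPKM + 1) for each gene, in the unstimulated pair (open diamonds, 1 against 1 library, no error) and after anti-IgM (circles with 95% interval from limma, 4 against 4). Bcl2l11, Bbc3 and Bak1 differ by 0.354 to 0.551 before stimulation and by -0.110 to 0.00149 after it.

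Whether the response to anti-IgM differed between genotypes was tested with an interaction term over all 10 libraries, in which each lone unstimulated library is assumed to vary like the stimulated ones. Bcl2l11, Mcl1 and Bbc3 were called, 3 of 10 genes, where 18.9% of all genes were called, 14.7% lower and 4.18% higher. All 3 were lower, and the count moved with that of all genes: it was 5 with TPM rescaling (every library brought to the same sum), where 35.5% of all genes were called, and 1 with median-of-ratios scaling, where 12.6% were. Bcl2l11 rose by 1.68 on the log2 scale in wild type and by 1.08 in libraries labelled knockout, a difference of -0.607 (SE 0.0681, limma adjusted p = 0.00182). This difference came with nearly equal stimulated levels (92.4 ± 3.05 and 88.8 ± 2.30 FPKM, SD, n = 4 each) and unequal unstimulated ones, so it rests on 2 single libraries. It was called in 18 of 18 alternatives. All of these kept both unstimulated libraries, so they cannot show how far the difference depends on them. Mcl1 changed by 0.0898 in wild type and by -0.163 in libraries labelled knockout (difference -0.253, SE 0.0630, limma adjusted p = 0.0233), and Bbc3 by 0.714 and 0.0900 (difference -0.624, SE 0.168, limma adjusted p = 0.0318). The calls of Mcl1 and Bbc3 were lost in 3 of 18 and 6 of 17 alternatives, with limma adjusted p up to 0.133 and 0.0824. For Bbc3 these included leaving out wild-type library D (limma adjusted p = 0.0511) or library D labelled knockout (0.0536). Bak1 lay just outside the threshold (-0.353, limma adjusted p = 0.0504).

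Set against each other, pro-survival and pro-death transcripts were described by their share of the summed FPKM of the 10 genes, without a test. The pro-survival share was 54.5% in unstimulated wild type, 55.2% in the unstimulated library labelled knockout, 49.4% ± 1.48 in stimulated wild type and 50.1% ± 0.759 in stimulated libraries labelled knockout (SD, n = 4 each). Without Mcl1 the values were 8.29%, 8.42%, 18.1% and 21.8%. Within the 10 genes, the direction with stimulation thus turned on whether Mcl1 was counted. The A1 genes, also pro-survival, lie outside the 10 and were not counted. Of these, Bcl2a1b alone went from 261 and 188 FPKM unstimulated to means of 761 and 795 FPKM stimulated. Bcl2a1d rose too, and Bcl2a1a fell from 10.0 and 7.58 FPKM to 5.78 and 4.89 FPKM. Sums and shares here are of the 10 genes only, and a share with the A1 genes was not tested. Summed pro-survival FPKM went from 247 and 266 to 314 ± 13.9 and 304 ± 6.41, effector FPKM from 98.8 and 99.6 to 135 ± 7.75 and 134 ± 2.70, and BH3-only FPKM from 107 and 117 to 187 ± 4.65 and 168 ± 3.64 (SD, n = 4 each). BH3-only sums were 183 to 193 FPKM in stimulated wild-type libraries and 166 to 174 FPKM in those labelled knockout. The ratio of Bcl2l1 to Bcl2l11 was 0.344 in unstimulated wild type and 0.238 in the unstimulated library labelled knockout. Stimulated, it was 0.731, 0.684, 0.843 and 0.706 in wild-type libraries A to D and 0.850, 0.845, 1.03 and 0.922 in those labelled knockout. Both genes rose, Bcl2l1 by more, and the highest wild-type ratio lay just under the lowest of the other group.

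**Figure D4:**
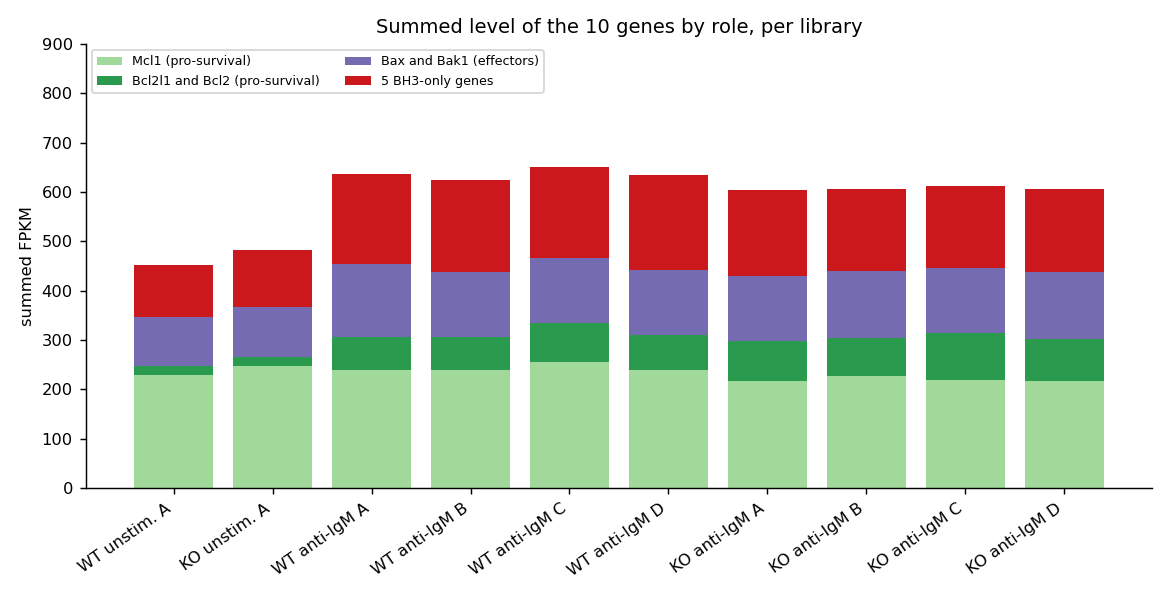
Summed FPKM of the 10 genes in each library, stacked by role, with Mcl1 shown apart from Bcl2l1 and Bcl2; KO stands for libraries labelled Nr4a1-/-. Mcl1 is the largest block in every library, between 217 and 256 FPKM, while the Bcl2l1 and Bcl2 block and the BH3-only block are larger in all 8 stimulated libraries.

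The genes whose log2 levels were most like each member's over the 10 libraries were ranked by Pearson correlation, which mostly follows the contrast of 8 stimulated with 2 unstimulated libraries and is given without a p. Ccnd2, a G1 cyclin gene, was nearest to Bcl2l1 (r = 0.999), followed by Nampt, an enzyme of NAD synthesis (r = 0.998). Irs2, an adaptor of insulin receptor signalling, was nearest to Bcl2l11 (r = 0.998), Cers4, a ceramide synthase gene, to Bcl2 (r = 0.997), Icam2 to Bmf (r = 0.997) and Adap1 to Bid (r = 0.995). Pycr1, an enzyme of proline synthesis, was nearest to Bax (r = 0.988), and Ktn1 to Pmaip1 (r = 0.967). The nearest genes to Bbc3 (Desi1, r = 0.955), Bak1 (Snd1, r = 0.942) and Mcl1 (Kdm5b, r = 0.885) were less alike.

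The rest of the family moved unevenly with anti-IgM. Of 16 further family genes 12 were tested, 2 rose, 8 fell and 2 did not pass, where 31.2% of all genes rose and 47.7% fell. Their median log2 change was -0.649, and that of all genes was -0.173. The 2 that rose were the A1 genes Bcl2a1b and Bcl2a1d, pro-survival genes known as NF-kB targets in B cells. A further A1 gene, Bcl2a1a, fell (log2 change -0.627, limma adjusted p = 8.27e-05). It went from 10.0 and 7.58 FPKM to 5.78 ± 0.449 and 4.89 ± 0.626 FPKM (SD, n = 4 each). Bcl2a1b went from 261 and 188 FPKM to 761 ± 35.2 and 795 ± 29.7 FPKM (SD, n = 4 each), a rise of 1.81 on the log2 scale (limma adjusted p = 1.37e-08). Bcl2a1d went from 124 and 88.2 FPKM to 363 ± 22.6 and 380 ± 21.1 FPKM (log2 change 1.81). These copies are nearly identical, so how reads were divided among them is uncertain. The falls included Bnip3l, a mitophagy receptor (-1.38), the BH3-only gene Bad (-1.36) and Bnip3 (-1.21). Between genotypes 1 of the 12 was called, Bcl2l13, lower in the libraries labelled knockout (-0.144, limma adjusted p = 0.0378), and 0 were called with any of the 3 other scalings. Of all genes tested 9.72% were called. The list's median difference was -0.0787, and that of all genes -0.0236.

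Downstream, of 14 caspase and apoptosome genes 10 fell, 2 rose and 2 did not pass with anti-IgM, where 47.7% of all genes fell and 31.2% rose. The median log2 change was -0.456, and -0.173 over all genes. With the other scalings 7 to 9 fell and 3 rose. The falls of at least 1 included Casp9, the initiator caspase of the apoptosome (-1.54, from 7.77 and 10.4 FPKM to 2.53 ± 0.377 and 2.37 ± 0.521, SD, n = 4 each) and Casp2 (-1.16). The rises were Cycs, which encodes cytochrome c (0.794), and Diablo, an antagonist of caspase inhibitors (0.546). Those 2 were named after their values were seen. Of 6 caspase inhibitor genes tested, out of 8 listed, 5 fell, Birc2, an E3 ligase, by the most (-1.12), and 0 rose (median -0.607). Of 7 death receptor genes tested, out of 10, 3 fell and 2 rose (median 0.00514), and with the other scalings 2 to 3 fell and 3 to 4 rose. Casp8, the initiator caspase of that route, went from 41.8 and 36.6 FPKM to 10.4 ± 0.377 and 10.2 ± 0.447 FPKM (log2 change -1.83, limma adjusted p = 2.51e-10). Cflar, which encodes its inhibitor c-FLIP, went from 23.3 and 25.2 FPKM to 49.9 ± 0.609 and 54.6 ± 2.13 FPKM (SD, n = 4 each; log2 change 1.08).

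**Figure D5:**
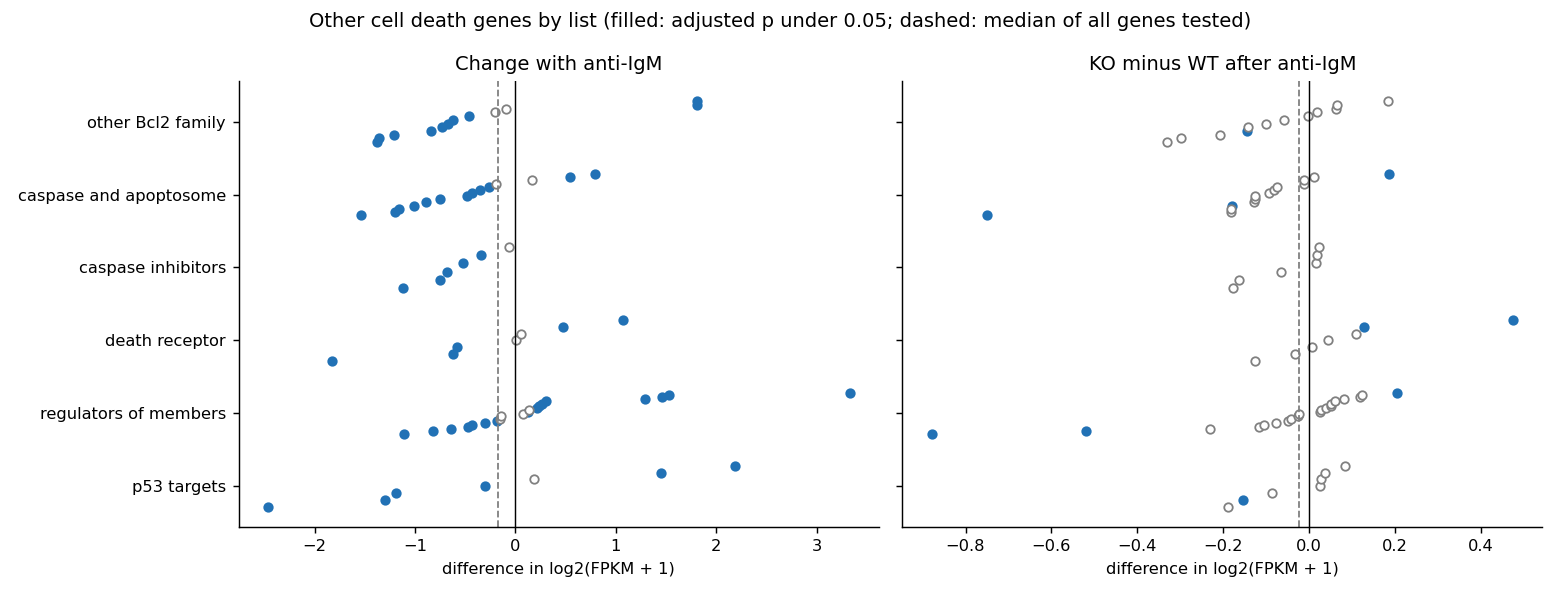
Difference in log2(FPKM + 1) of each tested gene of 6 lists of cell death genes and regulators, on the left with anti-IgM and on the right KO (libraries labelled Nr4a1-/-) minus WT after anti-IgM; filled points have a limma adjusted p under 0.05, dashed lines are the median of all genes tested, and the vertical spread within a list only separates the points. Of the 14 caspase and apoptosome genes 10 are filled left of 0 on the left, and Stat5a, Parp1 and Stat5b are the 3 points farthest left on the right.

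Between genotypes, Parp1, a DNA repair enzyme and caspase substrate, was the caspase list's largest difference, with 81.6 ± 2.85 FPKM for wild type and 48.1 ± 1.34 FPKM for libraries labelled knockout (SD, n = 4 each; log2 difference -0.750, limma adjusted p = 2.06e-06). Of this list (median -0.109) 3 of 14 were called, and 2 or 3 with the other scalings. Over all genes tested 9.72% were called, 3.91% higher and 5.81% lower. The others called in this list were Dffa, which encodes the inhibitor of the caspase-activated DNase, lower (-0.180, limma adjusted p = 0.0431) and Casp6 higher (0.186, limma adjusted p = 0.0136). In the death receptor list (median 0.0432) 2 of 7 genes were called. Both were higher, the death receptor Fas (0.476, limma adjusted p = 0.00886) and Cflar (0.129, limma adjusted p = 0.0300), and 1 of the 2 calls was lost with TPM rescaling. Fas stood at 7.26 ± 0.664 and 10.5 ± 1.33 FPKM (SD, n = 4 each) after stimulation, and at 7.37 and 4.82 FPKM before it. Of the 6 caspase inhibitors (median -0.0242) 0 were called by limma, with any of the 4 scalings, and 1 had an unadjusted p under 0.05, Birc2 (adjusted p = 0.0854).

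Of 20 genes for proteins that regulate the members, 9 rose and 7 fell with anti-IgM (median 0.0990). Over all genes tested 31.2% rose and 47.7% fell. With the other scalings 6 to 11 of the 20 rose and 4 to 5 fell. The largest rises were Myc (3.33), the NF-kB subunit genes Nfkb1 (1.53) and Rel (1.46), and Stat5a (1.29), and Mapk9, which encodes a Jun kinase, fell by 1.11. Between genotypes 3 of the 20 were called, 1 higher and 2 lower (median 2.5e-05), where 9.72% of all genes were called. With median-of-ratios scaling 3 were higher and 2 lower, after quantile normalization 2 and 2, and with TPM rescaling 1 and 2. Stat5a, a cytokine-activated transcription factor, had 43.9 ± 1.80 FPKM for wild type and 23.4 ± 0.911 FPKM for libraries labelled knockout (SD, n = 4 each; log2 difference -0.879, limma adjusted p = 2.45e-06), and its relative Stat5b was at 21.9 ± 0.607 and 15.0 ± 0.517 FPKM (-0.520, limma adjusted p = 3.17e-05). Nfkb1 was higher (0.205, limma adjusted p = 0.00139). Among 7 tested p53 targets, out of 12 listed and including Mdm2, which is also counted as a regulator, 2 rose, Sesn2 (2.18) and Aen (1.45), and 4 fell, including Sesn1 (-2.47), Trp53inp1 (-1.31) and Ccng1 (-1.19), with a median of -0.306. With the other scalings 3 rose and 3 to 4 fell. Between genotypes 1 of the 7 was called, Ccng1 (-0.153, limma adjusted p = 0.0480), where the list's median was 0.0259, and 0 were called with the other scalings.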

How the data were processed

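The libraries were made from poly(A) RNA by a kit that keeps strand, per the labels' protocols. The authors deposited 1 table of gene-level FPKM, as its name says, with 1 column per library. STAR 2.4, RSEM 1.2.14 and build mm10 are named in the submitters' processing notes; the annotation, any filter and whether strand was used in counting are not given in the sources used here. GENCODE M21 marks Bcl2, Bax and Bid as overlapping another gene, so their values are less certain. FPKM are not counts, and no count model was fitted.

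Values were analysed as log2(FPKM + 1) for genes averaging 1 FPKM or more, using limma 3.58.1 in R 4.3.3 (trended eBayes, two-sided, Benjamini-Hochberg over all genes tested, called under 0.05), and tested on simulated data. Gene positions are from GENCODE M21 and sequences from RefSeq (GRCm38.p6, the build of mm10); sequences of 9 of the 10 genes were used. Igj stood for Jchain; Ncr1 and Hba-a1 were not used. Named genes are the members, Nr4a1, the nearest genes by correlation, and up to 4 called genes per list and fit with the largest change (at least 1 on the log2 scale for anti-IgM); some of these are not reported here. Members and lists were chosen with earlier results of these data known. Alternatives covered pseudocount, filter, scaling, eBayes settings, the letter as a block, other sets of libraries and each library left out. For the difference in response only the 8 stimulated libraries were left out in turn.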

Additional observations from a re-analysis of the deposited data

Results flagged for a closer look

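In 6 of 22 groups of 4 stimulated libraries (the 10 genes and the pro-survival share, each genotype on its own), a single library lay far from its group; by chance about 1 group in 20 would show this. Wild-type library C held Mcl1 at 256 FPKM (the rest 238 to 240) and Pmaip1 at 18.8 FPKM (the rest 17.3 to 17.4). Wild-type library A held Bax at 130 FPKM against 114 to 115, and wild-type library B held Bbc3 at 6.02 FPKM against 5.22 to 5.35. Library A labelled knockout held Bcl2l11 at 92.2 FPKM against 87.2 to 88.0, and library B labelled knockout held Bmf at 7.15 FPKM against 7.48 to 7.52. Leaving out any of these libraries kept the genotype calls of Mcl1, Pmaip1 and Bmf.

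The response to anti-IgM differed between genotypes, by the interaction term, for Bcl2l11 (-0.607), Bbc3 (-0.624) and Mcl1 (-0.253), knockout minus wild type on the log2 scale. Each value rests on 1 unstimulated library per genotype.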

How the results depend on the processing

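Of 594 values of single genes under an alternative, 539 kept direction and side of the threshold. The call count with anti-IgM (8 of 10) was 8 in each of the 10 fits without 1 library, but not for the same genes: without the unstimulated wild-type library Bbc3 was lost and Mcl1 gained (4 higher, 4 lower), and without the one labelled knockout Pmaip1 was lost and Bak1 gained (6 higher, 2 lower). It was 7 higher and 2 lower with median-of-ratios scaling, 5 and 2 with TPM rescaling and 6 and 3 with quantile normalization. Without 1 library the count between genotypes (4) was 4 to 5. The count for a different response (3) was 2 to 4, with only stimulated libraries left out. That last count was 5 with TPM rescaling, 1 with median-of-ratios scaling and 1 with the letter as a replicate block. The block left 6 calls with anti-IgM and 5 between genotypes. Deviations of same-lettered libraries correlated at -0.122 to 0.0445, so no pairing by letter was seen over all genes together. Among myeloid markers, Lyz2, Cd14 and Itgam were highest in stimulated library B of both genotypes, while Csf1r, S100a8 and S100a9 were not. Lyz2 stood at 115 FPKM in wild-type library B and 82.6 FPKM in library B labelled knockout. Whether same-lettered libraries share a preparation, or pair for single genes such as Bcl2l1, was not tested. The share of calls that were higher over all genes depended on scale: 39.5% with anti-IgM became 53.8% and 40.2% between genotypes became 59.7% with median-of-ratios scaling, and 22.1% for the response became 4.82% with TPM rescaling and 41.9% after quantile normalization.

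These reversals were all in values without a call as reported. With anti-IgM, Mcl1 was 0.127 with TPM rescaling, 0.199 with median-of-ratios scaling and 0.0897 in wild-type libraries only, and ran from -0.163 to 0.0897 without 1 library; Bak1 was -0.116 in libraries labelled knockout only and ran from -0.116 to 0.236. Between genotypes Bax was 0.0279 with median-of-ratios scaling and ran from -0.0323 to 0.0290 without 1 library, and Bak1 ran from -0.0323 to 0.0416. For the response, Bax was -0.129 with TPM rescaling, Bcl2 0.0157 under median-of-ratios and -0.0831 to 0.00473 without 1 library, and after quantile normalization Bcl2 was 0.0801 and Pmaip1 0.0912. The cause was not tested. Without Mcl1 the pro-survival share was 8.29%, 8.42%, 18.1% and 21.8% in the 4 groups, unstimulated first. Without Bcl2 it was 53.6% and 54.2% unstimulated. A mean of at least 5 FPKM left Bcl2 and Bbc3 untested. Absolute depth is unknown, so how far it limits each gene was not tested.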
